A study of Mus musculus with 12 samples.

Results

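The genes of the cell cycle and of DNA replication were followed on 12 Affymetrix arrays of the mouse genome. The list held 42 genes, and a gene was measured by the probe sets, groups of short probes for a transcript, that the array annotation gives to that gene symbol alone. Such probe sets were present for 41 of the 42 genes, 96 of 45037 probe sets, among 18193 genes measured in this way. Ccnb1, a mitotic cyclin, had none and is not reported. The RNA came from gonadal white adipose tissue (WAT), from M. vastus lateralis, a thigh muscle, and from liver of female Ghsr knockout mice on a C57bl/6 background, 12 weeks old. The mice had been injected intraperitoneally with saline or with unacylated ghrelin (UAG) at 20 nmol/kg, and the tissues were taken after 6 h. Ghsr encodes the receptor for acylated ghrelin, and UAG is the same peptide without its acyl group. There were 2 saline and 2 UAG arrays per tissue. All animals lacked Ghsr in every cell, so the arrays hold no wild type sample, and the Ghsr probe set cannot check the genotype. The methods of the study give n = 2 for the saline and UAG treated mice of the array experiment. Arrays are not tied by the labels to single mice, so each p-value reflects no more than the spread between arrays, which may be technical.

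Proliferating cells pass through the cycle in order. In G1, D-type cyclins with Cdk4 and E-type cyclins with Cdk2 phosphorylate the pocket proteins Rb1 and Rbl1, which otherwise hold E2F transcription factors in check. E2F factors drive genes for licensing of replication origins and for nucleotide supply, and later in the cycle Cdk1 with A- and B-type cyclins brings the cell into mitosis. Adult fat, muscle and liver are made up mainly of cells that have left the cycle, so the genes of S phase and mitosis are usually low in them, whereas D-type cyclins, inhibitors and pocket proteins are also made by resting cells. In whole tissue, a change in the number of cells of a type and a change of RNA within cells cannot be told apart.

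The promoters of 5 genes that stood out on single arrays are shown because mitotic and S phase genes are known to share short promoter sequences. The sequences are from RefSeq (build GRCm38.p6) and cover the 250 bases before the annotated transcript start, written 5′ to 3′ on the strand of the gene. Mki67 lies at chr7:135716380-135716629 (minus strand), Top2a at chr11:99024190-99024439 (minus), Cdk1 at chr10:69352913-69353162 (minus), Rrm2 at chr12:24708004-24708253 (plus) and Mcm5 at chr8:75109259-75109508 (plus). Capitals mark the CCAAT box (CCAAT), the core of the cell cycle homology region (CHR, TTTGAA) and E2F letters (TTTGGCGC, TTTCCCGC, TTTGCCGC or TTTCGCGC), each searched on both strands.
Mki67: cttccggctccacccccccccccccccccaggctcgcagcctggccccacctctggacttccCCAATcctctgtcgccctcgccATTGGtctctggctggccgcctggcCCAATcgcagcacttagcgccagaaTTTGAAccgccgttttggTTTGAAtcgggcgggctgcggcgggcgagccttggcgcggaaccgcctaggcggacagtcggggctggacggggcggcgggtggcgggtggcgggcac
Top2a: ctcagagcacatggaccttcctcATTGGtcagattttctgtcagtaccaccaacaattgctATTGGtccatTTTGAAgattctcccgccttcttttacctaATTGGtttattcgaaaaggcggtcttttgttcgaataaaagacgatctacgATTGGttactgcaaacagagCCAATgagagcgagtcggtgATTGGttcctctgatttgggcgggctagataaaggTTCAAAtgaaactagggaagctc
Cdk1: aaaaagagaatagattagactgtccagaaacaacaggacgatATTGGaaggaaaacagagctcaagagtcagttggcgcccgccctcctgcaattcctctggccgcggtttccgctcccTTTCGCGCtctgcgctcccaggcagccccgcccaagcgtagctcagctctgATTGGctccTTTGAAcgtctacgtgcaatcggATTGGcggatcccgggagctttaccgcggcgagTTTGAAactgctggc
Rrm2: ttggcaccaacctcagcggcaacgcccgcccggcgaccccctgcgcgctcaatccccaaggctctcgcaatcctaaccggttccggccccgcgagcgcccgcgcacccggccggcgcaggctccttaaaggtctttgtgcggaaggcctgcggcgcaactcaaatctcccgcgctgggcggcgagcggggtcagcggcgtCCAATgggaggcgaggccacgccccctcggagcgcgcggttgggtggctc
Mcm5: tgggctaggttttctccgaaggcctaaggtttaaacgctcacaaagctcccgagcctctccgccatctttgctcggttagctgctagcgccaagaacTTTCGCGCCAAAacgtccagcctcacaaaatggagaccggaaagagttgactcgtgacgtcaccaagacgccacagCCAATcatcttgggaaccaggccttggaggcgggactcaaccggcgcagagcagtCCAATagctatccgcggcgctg
The Mki67 window held 3 CCAAT boxes and 2 CHR cores, that of Top2a 6 and 2, and that of Cdk1 3 and 2 with 1 E2F match. In the Mcm5 window 2 E2F matches on opposite strands overlapped each other, and no match overlapped one of another kind. RefSeq windows were found for 34 of the 42 genes. CCAAT was present in 23 of these 34 (67.6%), against 37.5% of 27025 genes with a window, and in 9 of 10 genes of G2 and mitosis. The CHR core was present in 9 of 34 (26.5%, against 18.3% of all genes), of which 5 were genes of G2 and mitosis. E2F letters were found in 8 of 34 (23.5%, against 2.16%), and 4 of these 8 were licensing genes. TATAAA was in none of the 34 and in 14.3% of all genes. These shares are descriptions of letters, not of binding.

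Intensities of different probe sets are not comparable with each other, so each gene is compared only with itself. The study treated an intensity of 30 as its threshold. The brightest probe set was at 30 or more on all 12 arrays for 18 genes, on 1 to 11 arrays for 19 and on no array for 4. These 4 were Tyms (thymidylate synthase), Aurkb, Plk1 and Bub1 (mitotic kinases). A mean of at least 30 over the 12 arrays was reached by 32 genes, which entered the tests between tissues. The 9 others measured were E2f2, E2f8, Cdc6, Ccnb2, Birc5 and the 4 just named. The tissues matched their labels, with the adipocyte gene Adipoq at 12280 to 14161 in WAT, Ckm of muscle fibres at 13213 to 14587 in muscle, and Alb of hepatocytes at 10618 to 15547 in liver. The muscle arrays also held adipocyte RNA, with Adipoq at 7674 to 11935. Within a tissue, arrays had correlations of 0.951 to 0.962 (WAT), 0.938 to 0.951 (muscle) and 0.925 to 0.946 (liver).

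Many of these genes differed in level between the tissues. In a limma fit to all 12 arrays, 18 of 32 genes differed between WAT and liver, where 58.1% of all 26530 probe sets did. Of these, 13 were higher in WAT and 5 lower (31.7% and 26.4% of all probe sets). Between muscle and liver 20 of 32 differed (60.9% of all probe sets), with 13 higher and 7 lower in muscle (32.7% and 28.2%). Between WAT and muscle it was 14 of 32 (47.1%), with 7 higher and 7 lower in WAT (26% and 21.1%). The share of cell cycle genes that differed was thus near that of all probe sets. The median log2 difference of the 32 genes was 0.75 for WAT over liver, 0.42 for muscle over liver and 0.37 for WAT over muscle, and that of all probe sets was 0.06, 0.05 and 0.09.

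By their brightest probe sets, the brakes on the cycle were low in liver. All 5 inhibitors and pocket proteins were lower there than in WAT and than in muscle, but a second probe set of Cdkn1b was not. Cdkn1a (p21, an inhibitor of cyclin-dependent kinases induced by p53 and by stress) was at 135, 259, 252 and 292 on the WAT arrays (saline 1, saline 2, UAG 1, UAG 2). Muscle gave 453, 229, 554 and 463, and liver 41.9, 12.2, 28.5 and 52.6, in the same order of arrays. Liver lay below every other array, with a log2 difference of 2.93 ± 0.39 (SE) for WAT over liver (adjusted p = 6.61e-05, limma) and 3.77 ± 0.39 for muscle over liver (adjusted p = 7.33e-06, limma). WAT and muscle overlapped. Cdkn2c (p18, which blocks Cdk4 and Cdk6) was highest in WAT, at 2034, 1468, 1462 and 1803, followed by muscle at 682, 1277, 705 and 905 and liver at 321, 350, 343 and 355. The 3 tissues did not overlap, and the log2 difference between WAT and liver was 2.29 ± 0.19. Rb1, the retinoblastoma protein, had the same order, with WAT at 697 to 886, muscle at 458 to 604 and liver at 157 to 181, with a log2 difference of 2.28 ± 0.12 between WAT and liver (adjusted p = 3.06e-08, limma). Rbl1 (p107) reached 120 to 191 in WAT, while muscle was at 62.9 to 118 and liver at 26.3 to 53.8. Adipocyte markers summed to 26124, 41193, 29730 and 34157 on the muscle arrays (saline 1, saline 2, UAG 1, UAG 2). The part of adipocyte RNA in the muscle levels of genes that were high in WAT was not tested.

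By its brightest probe set Cdkn1b (p27) was instead highest in muscle, at 452 to 643, with 271 to 308 in WAT and 135 to 188 in liver, again without overlap. Its second probe set, at 44.5 to 116 on all arrays, went the other way for WAT against liver (log2 difference -0.65, adjusted p = 0.0267, limma). That probe set did not place muscle above liver (-0.17, not called), and its difference for WAT against muscle (-0.48) was not called either. The order of the tissues thus depended on the probe set. Cdkn1b was the only gene among those called in which another probe set was called in the opposite direction in the same comparison. A second probe set was tested for 11 of the 18 genes called between WAT and liver, and in 6 of them it was called in the same direction.

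The D-type cyclins were not highest in the same tissue. Ccnd1 was highest in liver, at 1133 and 1354 after saline and 1020 and 1069 after UAG, whereas WAT gave 192, 501, 316 and 228 and muscle 97.5, 273, 181 and 198. The log2 difference was -1.98 ± 0.33 for WAT against liver and -2.70 ± 0.33 for muscle against liver (adjusted p = 0.000384 and 3.14e-05, limma). Ccnd2 went the opposite way, with WAT at 2158, 1614, 2295 and 2674, muscle at 332, 794, 493 and 512, and liver at 147, 165, 143 and 149. All 3 tissues were separate for Ccnd2, and WAT exceeded liver by 3.83 ± 0.22 on the log2 scale (adjusted p = 8.36e-08, limma), the largest rise of any of the 32 genes between these tissues. Ccnd3 was at 663 to 822 in WAT, whereas muscle was at 250 to 317 and liver at 314 to 364. Its difference between WAT and the other tissues was 1.09 ± 0.11 (liver) and 1.44 ± 0.11 (muscle) on the log2 scale. The smaller one between muscle and liver (-0.35 ± 0.11) lost its call when muscle saline replicate 1, muscle UAG replicate 1 or liver UAG replicate 1 was left out.

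Among the other G1 genes, Ccne2, an E-type cyclin, was highest in muscle at 70.5 to 107, with 24.8 to 34.1 in WAT and 12 to 56.6 in liver, and differed from both (log2 difference 1.56 ± 0.34 against liver and -1.66 ± 0.34 for WAT against muscle). Ccne1 was at 15.3 to 81.1 and was not called. Cdk2, the partner of E-type cyclins, was highest in liver at 198 to 294, above 152 to 182 in WAT and 112 to 160 in muscle. By its brightest probe set Cdk4 was at 233 to 320 on all arrays apart from WAT saline replicate 2, where it reached 505. Its call between WAT and muscle (0.45 ± 0.17, adjusted p = 0.0453, limma) was lost when any single array was left out, except WAT saline replicate 1. The 2 further Cdk4 probe sets were called higher in WAT than in muscle (0.61 and 0.42). They were also called higher in WAT than in liver (0.43 and 0.81, adjusted p = 0.0419 and 0.000398, limma), where the brightest was not (0.23).

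**Figure D1:**
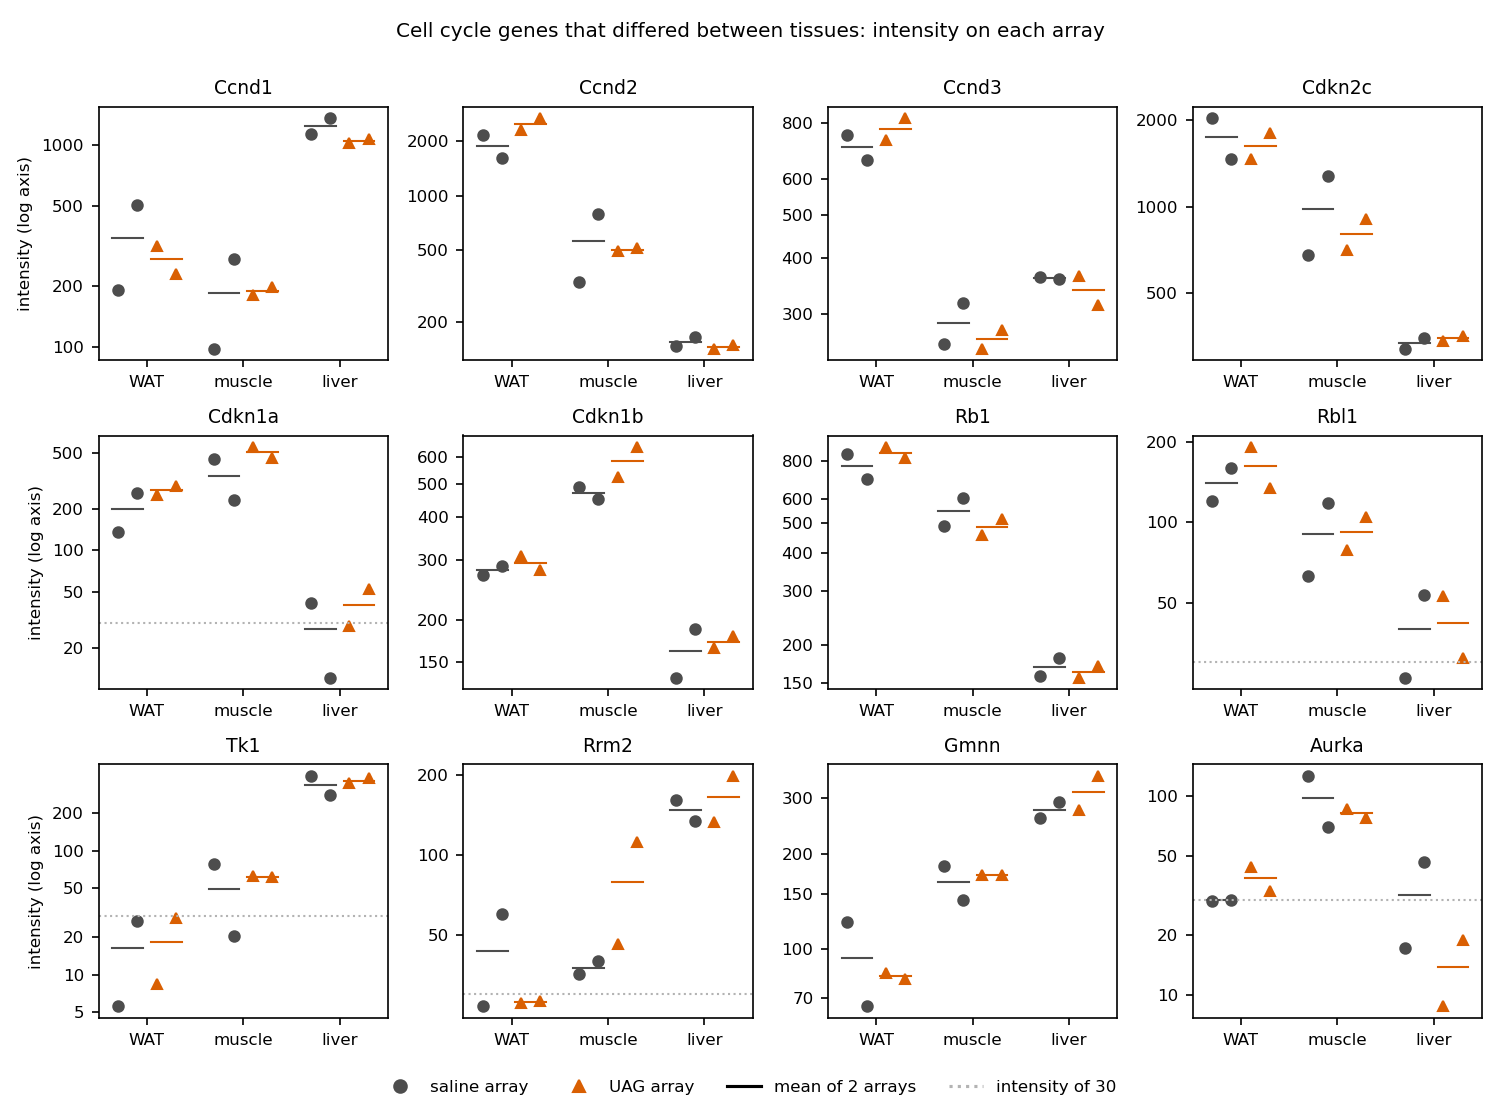
Intensity of 12 cell cycle genes on each of the 12 arrays (log axis), by tissue and treatment; circles are saline arrays, triangles UAG arrays, short lines the mean of 2 arrays and the dotted line the threshold of 30. By the brightest probe set, which is the one shown, Ccnd1, Tk1, Rrm2 and Gmnn were highest in liver, Ccnd2, Ccnd3, Cdkn2c, Rb1 and Rbl1 in WAT, and Cdkn1b and Aurka in muscle.

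Of the genes for DNA precursors, Tk1 and Rrm2 were highest in liver. Tk1 (thymidine kinase, which salvages thymidine in S phase) was at 402, 281, 352 and 385 in liver, 78.1, 20.6, 62.1 and 61.9 in muscle and under 30 on all 4 WAT arrays (5.55, 27.3, 8.44 and 28.5). The log2 difference was -4.67 ± 0.56 for WAT and -2.82 ± 0.56 for muscle against liver (adjusted p = 3.02e-05 and 0.0011, limma), the first of which rests on WAT values under the threshold. Rrm2, the regulatory subunit of ribonucleotide reductase, was at 160, 134, 133 and 198 in liver, 35.7, 40, 46.4 and 112 in muscle and 27.1, 60.2, 27.9 and 28.5 in WAT. Its liver arrays lay above all others, and its 2 further probe sets gave the same calls against liver. Rrm1, the catalytic subunit of the same enzyme, was highest in muscle, at 214 to 292 against 117 to 146 in WAT and 92.9 to 152 in liver. Pcna, the sliding clamp of the replication fork, was at 840 to 1141 on all 12 arrays and was called in no comparison. Of the erythroid marker list, Klf1 was at 167 to 205 in liver, 22 to 56.6 in muscle and 7.1 to 25.1 in WAT, and Alas2 at 162 to 229, 43.2 to 123 and 64.1 to 153. The erythroid sum over 5 genes was 405 to 449 in liver, 110 to 315 in muscle and 131 to 192 in WAT. Hba-a1 and Epb42 were under 30 on all arrays, and in liver Slc4a1 reached 30 only on UAG replicate 2. The liver sum thus rested mainly on Klf1 and Alas2, with 2, 2, 2 and 3 of the 5 genes at 30 or more (saline 1, saline 2, UAG 1, UAG 2). The part of erythroid cells in the liver levels of Tk1 and Rrm2 was not tested.

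The MCM genes encode the replicative helicase that is loaded onto origins. Mcm3 to Mcm7 were higher in WAT than in liver, by 0.72 ± 0.21 (Mcm3), 0.89 ± 0.16 (Mcm4), 0.92 ± 0.33 (Mcm5), 0.94 ± 0.26 (Mcm6) and 0.79 ± 0.12 (Mcm7) on the log2 scale, each by its brightest probe set. The further probe set tested was called in the same direction for Mcm4 (1.16) and Mcm6 (1.16). None of the further ones was called for Mcm3 (0.67 and 0.27) or for Mcm7 (0.27, 0.11 and -0.08), and Mcm5 had no other in the test. The call of Mcm3 was lost with saline arrays alone (0.63) and without WAT saline replicate 2 and muscle UAG replicate 2 together (0.63), and that of Mcm6 with saline arrays alone (1.17). Mcm7 was at 394, 518, 415 and 425 in WAT, the muscle arrays were at 304, 354, 339 and 338 and those of liver at 282, 249, 258 and 224. Mcm4 was at 124 to 213 (WAT), 129 to 172 (muscle) and 70.2 to 96.1 (liver), so only liver was separate. Without WAT saline replicate 2, on which all of Mcm2 to Mcm7 were at their highest in WAT, the log2 difference of Mcm5 was 0.63 and it was no longer called. The call of Mcm5 was also lost without WAT UAG replicate 1 or 2, liver saline replicate 1 or liver UAG replicate 1 or 2 (0.56 to 0.93). Mcm2 was at 52.7 to 202 in the 3 tissues and was not called. Gmnn (geminin, the inhibitor of the loading factor Cdt1) ran opposite to the helicase, at 260, 291, 275 and 353 in liver, 183, 144, 172 and 172 in muscle and 122, 66, 84.2 and 80.7 in WAT, with a log2 difference of -1.77 ± 0.19 for WAT against liver (adjusted p = 1.35e-05, limma). Cdt1 itself was at 94.7 to 171 in liver and 45.6 to 86.3 in muscle (-0.87 ± 0.22). Cdc6, the other loader, was at or above 30 on 3 arrays only: 34.5 on WAT saline replicate 1, 38.4 on muscle saline replicate 1 and 62.3 on muscle UAG replicate 2.

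E2f3 is an activating E2F. By its brightest probe set it was highest in muscle at 152 to 217, with 99.2 to 135 in WAT and 96.3 to 135 in liver. Its second probe set did not place muscle above liver (44.3 to 61.7 against 45.2 to 74.9, log2 difference -0.15, not called). By that probe set WAT, at 28.4 to 41.3, was lower than liver (-0.80, adjusted p = 0.0109, limma). E2f1, the founding activator, was at 43.1 to 113 in WAT and 5.22 to 50 in muscle, a log2 difference of 1.59 ± 0.51 (adjusted p = 0.0249, limma) that lost its call in 7 of the alternative fits, among them those without any single WAT array other than UAG replicate 2. Of the genes of G2 and mitosis, 6 of 11 measured were bright enough for the test. Aurka (a spindle kinase) was higher in muscle, at 126, 69.3, 85.7 and 77.1, than in WAT (29.7, 30, 44.1 and 33.2) and liver (17.2, 46.6, 8.75 and 18.9). The log2 difference was 2.19 ± 0.38 for muscle against liver and -1.37 ± 0.38 for WAT against muscle, the second of which was not called without muscle saline replicate 1 (-1.15). Cdc20, an activator of the anaphase promoting complex, was at 54.6 to 80.6 in muscle and 12.1 to 55.3 in liver (1.40 ± 0.46). This call was lost without muscle saline replicate 1, either muscle UAG array, liver saline replicate 1 or liver UAG replicate 2 (0.85 to 1.41). A second Cdc20 probe set did not place muscle above liver (11.8 to 61.6 against 27 to 45.4, log2 difference -0.29, not called). By that probe set WAT was higher than muscle (0.83, adjusted p = 0.0384, limma), where the brightest gave -0.53 and was not called. Top2a (topoisomerase II alpha) was at 25.4 to 75.1 in WAT and 4.56 to 28.7 in liver, and its call (1.38 ± 0.54, adjusted p = 0.0469, limma) was lost when any single array other than WAT saline replicate 1 or liver UAG replicate 1 was left out. A second Top2a probe set did not place WAT above liver (24.5 to 34.6 against 28.6 to 47.4, log2 difference -0.40, not called). Mki67 (the Ki-67 antigen), Ccna2 and Cdk1 were called in no tissue comparison.

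At 6 h after UAG, no cell cycle gene was called in any tissue. Of 31 genes tested in WAT, 31 in muscle and 29 in liver, limma called 0 in each, where it called 0 (0%), 0 (0%) and 1 (0.00397%) of all 25307, 25105 and 25160 probe sets. At an unadjusted p under 0.05 there were 1, 1 and 2 genes, where 6.73%, 1.81% and 3.52% of all probe sets passed. The median log2 difference of the tested genes in WAT, muscle and liver was 0.06, 0.28 and 0.06, and that of all probe sets 0.01 in WAT and 0.00 in the other two. With 2 arrays per arm the standard error of a gene on the log2 scale ran from 0.16 to 0.64 (WAT), 0.18 to 1.16 (muscle) and 0.11 to 0.94 (liver). Changes of this size could not be detected. Differences well beyond their standard error, such as those given below for E2f1 in WAT and E2f8 in liver, were not called either. A mean UAG effect over the tissues was called for 0 of 32 genes (0.0226% of all probe sets), with 1 gene, E2f1, at an unadjusted p under 0.05 (5.18%). A difference of the UAG effect between tissues was called for 0 of 32 (0%), with 0 genes at an unadjusted p under 0.05 (3.61%).

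**Figure D2:**
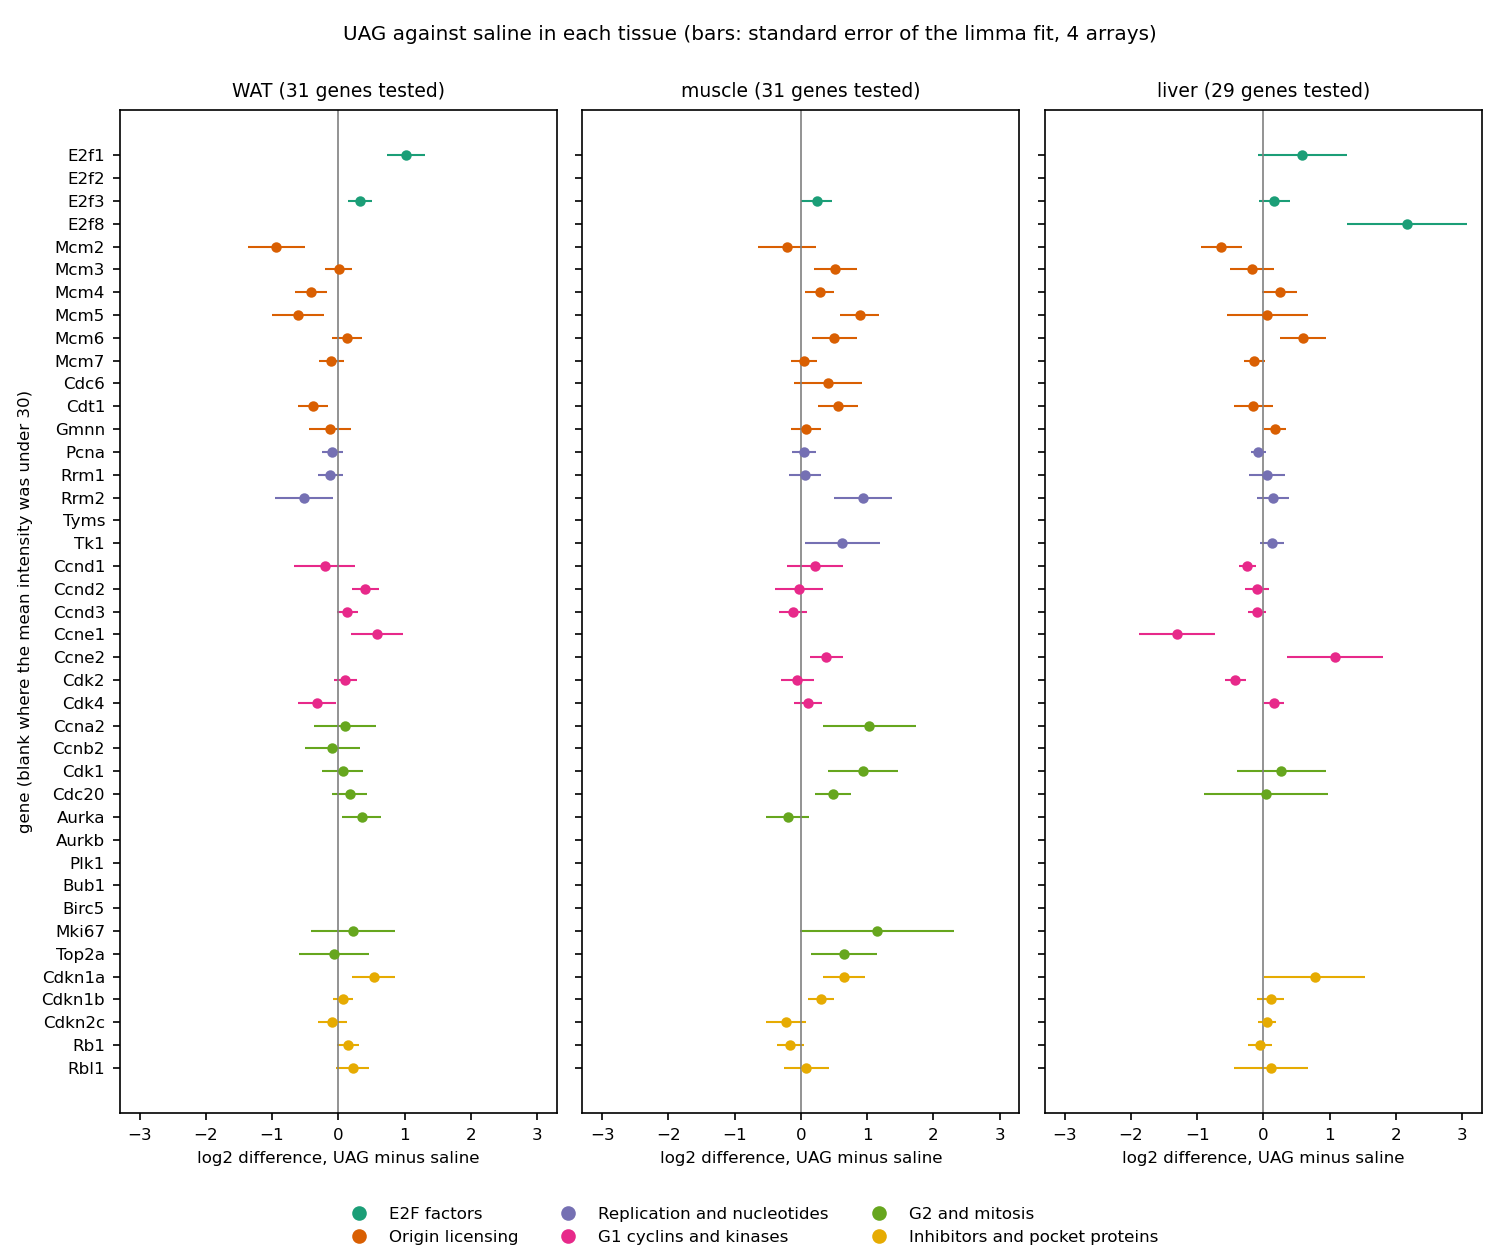
Log2 difference of UAG minus saline (x axis) for each gene (y axis) in WAT, muscle and liver, with the standard error of the limma fit; colours give the role, and a gene is blank where its mean intensity in the tissue was under 30. The points farthest to the right were E2f1 in WAT (1.02), Mki67 in muscle (1.15 ± 1.16) and E2f8 in liver (2.16), and no difference passed the adjusted threshold.

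The methods of the study name a 2-fold ratio of means and an intensity threshold of 30, without saying how it was applied. With intensities below 30 set to 30, a choice made here, 1 gene reached 2-fold in WAT and 1 in muscle, and liver had 0, where 1.63%, 0.418% and 0.396% of all genes did. With no such floor the counts were 1, 7 and 6. The share of all genes without a floor is not given here, so these counts cannot be set against it. In WAT it was E2f1, at 44.3 and 43.1 on the saline arrays and 113 and 69.5 on the UAG arrays, means of 43.7 ± 0.876 and 91.4 ± 30.9 (SD, n = 2). The arrays did not overlap and the ratio was 2.09, with a log2 difference of 1.02 ± 0.29 (SE) and an adjusted p of 0.632 in limma. A second E2f1 probe set was at 45.2 and 35.9 after saline and 73.2 and 46.9 after UAG. Without WAT UAG replicate 1, E2f1 no longer reached 2-fold and no gene was left. Without WAT saline replicate 1 there were 4 genes, E2f1 (2.12) with Mcm2, Mcm5 and Rrm2 at ratios of 0.448, 0.439 and 0.498. Without WAT saline replicate 2 or UAG replicate 2 there were 2, E2f1 with Cdkn1a (2.01) or with Mcm2 (0.341). For 2-fold counts with an array left out, here and in the other tissues, no share of all genes is given.

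In muscle the 2-fold gene was Rrm2, at 35.7 and 40 after saline and 46.4 and 112 after UAG, a ratio of 2.09 with a log2 difference of 0.93 ± 0.44 (adjusted p = 1.00, limma). Mki67 lay just under 2-fold. Both ratios rested on UAG replicate 2, and without that array no gene reached 2-fold. Without UAG replicate 1, so that replicate 2 stood alone, 4 genes did, namely Mki67 (2.999), Rrm2 (2.96), Ccna2 (2.47) and Top2a (2.01). Without saline replicate 1 they were Cdkn1a (2.22) and Tk1 (2.07), and without saline replicate 2 Rrm2 (2.22) and Mcm6 (2.00). In liver, Mcm6 (2.04) was 2-fold without saline replicate 1, E2f8 (2.48) without saline replicate 2, and E2f8 (2.25) with Ccne1 (0.380) without UAG replicate 1.

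Counting genes whose saline and UAG arrays did not overlap gave 8 of 41 in WAT (19.5%, against 25.6% of all genes). It gave 10 of 41 in muscle (24.4%, against 14.7%), and 7 of 41 in liver (17.1%, against 20.1%). In muscle all 10 were higher after UAG: E2f2, Mcm4, Mcm5, Cdt1, Rrm2, Ccne2, Cdk1, Cdc20, Cdkn1a and Cdkn1b. The 14.7% covers either direction, and the share of all genes apart and higher is not given here. UAG replicate 2 stood apart in several cell cycle genes, as described below. Second probe sets overlapped for Cdkn1a (100 and 21.3 after saline, 85 and 88.3 after UAG) and Cdkn1b (79.5 and 46.9, 90.8 and 73.8), but not for Mcm4 and Cdc20. Of the 10 genes, Mcm5 was at 41.1 and 44.3 after saline and 76.7 and 81 after UAG, a ratio of 1.85 (log2 difference 0.89 ± 0.29, adjusted p = 1.00, limma). In WAT the 8 were split, with E2f1, E2f3, Ccnd2 and Aurka higher and Mcm2, Mcm4, Mcm5 and Cdt1 lower after UAG. By their brightest probe sets, Mcm4, Mcm5 and Cdt1 thus lay apart in opposite directions in WAT and muscle. Mcm4 was at 145 and 213 after saline and 141 and 124 after UAG in WAT, and at 129 and 141 against 172 and 157 in muscle. Its second probe set overlapped in WAT (80.1 and 181 after saline, 133 and 91.3 after UAG). Mcm5 in WAT was barely apart, at 55.3 on saline replicate 1 and 54.2 on each UAG array, with 123 on saline replicate 2. A second Mcm5 probe set overlapped in WAT (18.2 and 39.6 after saline, 34.7 and 33.4 after UAG) and in muscle (17.9 and 25.3, 21.1 and 30.7). A second Cdt1 probe set was lower after UAG in WAT (54.9 and 65.1 against 47.6 and 27.6) but under 30 on all muscle arrays. The share of all genes apart in opposite directions is not given here. The test of a difference between tissues gave an unadjusted p of 0.0905 for Mcm4, 0.126 for Mcm5 and 0.134 for Cdt1, with an adjusted p of 1.00 for each (limma).

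In liver E2f8 and Mcm4 were higher, and Mcm2, Pcna, Ccnd1, Ccne1 and Cdk2 lower, on both UAG arrays. E2f8, a repressor among the E2F factors, was at 5.72 and 47.1 after saline and 62.1 and 86.9 after UAG, a log2 difference of 2.16 ± 0.91 (unadjusted p = 0.0424, adjusted p = 1.00, limma). After setting values below 30 to 30 its ratio was 1.93. Cdk2 was at 257 and 294 after saline and 213 and 198 after UAG (log2 difference -0.42 ± 0.16, unadjusted p = 0.0268, adjusted p = 1.00, limma). Ccnd1, the liver cyclin, was at 1133 and 1354 against 1020 and 1069, a ratio of 0.841.

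Leaving out an array let a few genes pass the adjusted threshold, and which genes they were depended on the array. Without WAT saline replicate 1, when 6.52% of all probe sets were called, Mcm5 (-1.19), Ccnd1 (-0.90) and Cdk4 (-0.74) were called lower and Ccnd2 (0.62) higher after UAG on the log2 scale. Without WAT saline replicate 2, when 5.04% were called, only Cdkn1a passed (1.00, adjusted p = 0.01, limma). Cdkn1a was also the only gene called without muscle saline replicate 1 (1.15, adjusted p = 0.00804, limma, against 0.935% of all probe sets). Cdkn1a was at 135 and 259 after saline and 252 and 292 after UAG in WAT, and at 453 and 229 against 554 and 463 in muscle. In these fits the lone saline array was assumed to vary like the UAG arrays.

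Single arrays stood apart from the others of their tissue. A gene was counted as alone high on an array if it was at least 1.5 times the next array of that tissue, with values below 30 set to 30. On muscle UAG replicate 2 this was so for 8 of 41 genes (19.5%), where 0.632% of all genes were alone high. On WAT saline replicate 2 it was so for 7 of 41 (17.1%), where 2.84% of all genes were. On each of the 10 other arrays it was so for 0 to 2 genes, in all for 2.2% of pairs of a gene and an array, where 1.04% of pairs were over all genes.

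**Figure D3:**
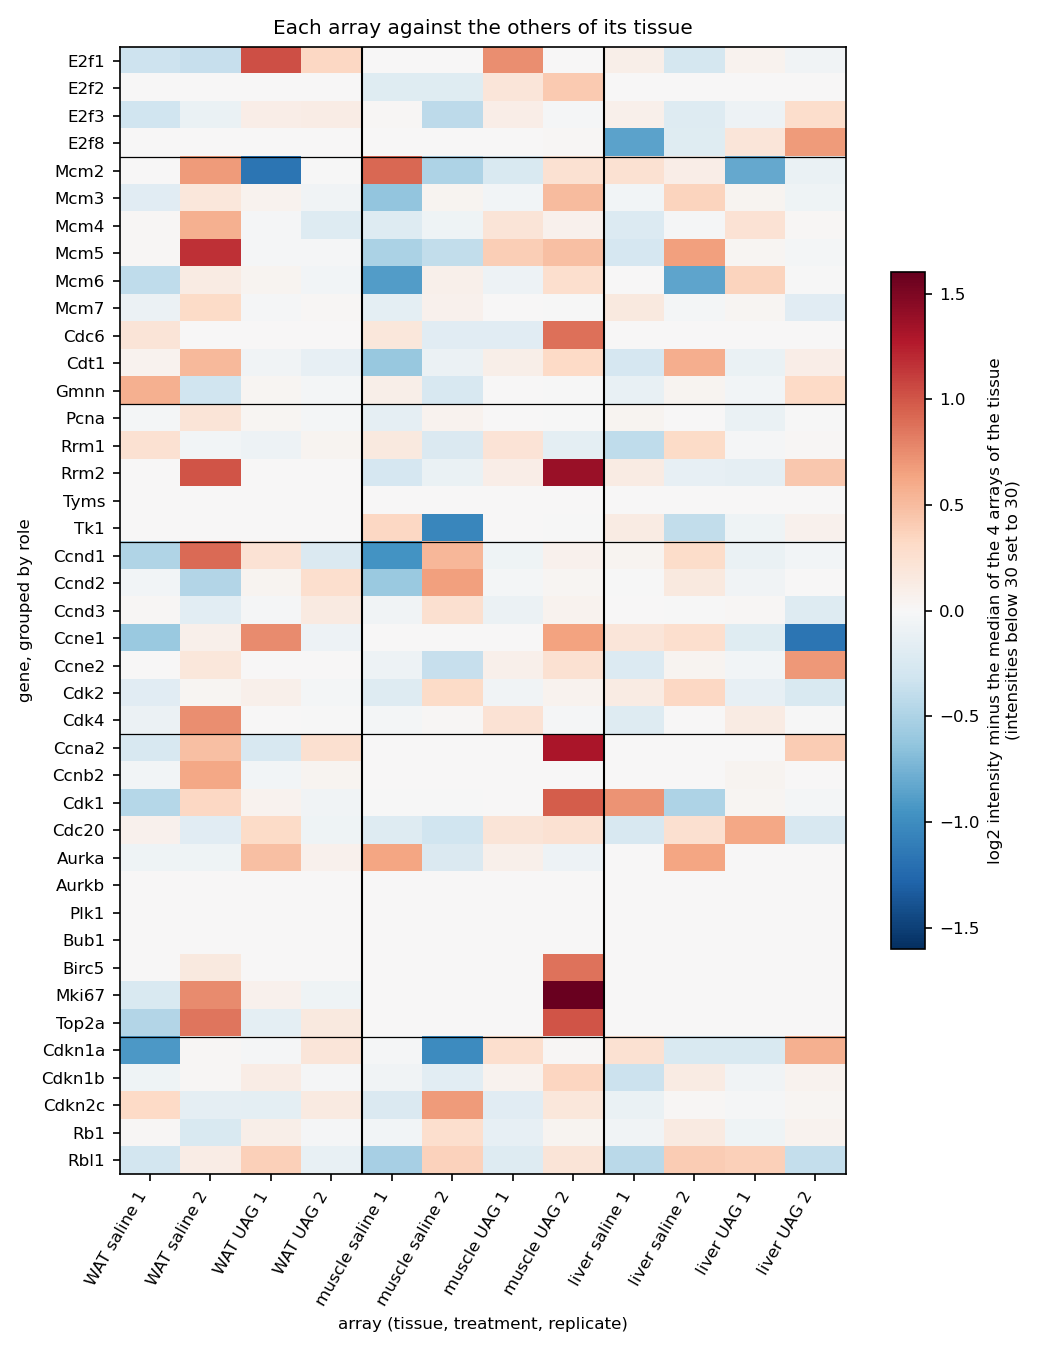
Log2 intensity of each of the 41 genes (rows, by role) on each array (columns) minus the median of the 4 arrays of that tissue, with intensities below 30 set to 30; red is above and blue below that median. WAT saline replicate 2 and muscle UAG replicate 2 are the columns with most red, in the licensing and nucleotide genes and in the genes of G2 and mitosis.

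On muscle UAG replicate 2, 5 of the 11 measured genes of G2 and mitosis were alone high. Mki67 was at 90 there, against 8.31 and 16.4 on the saline arrays and 7.51 on the other UAG array. Ccna2, the cyclin of S phase and G2, was at 74.2 against 16, 21.1 and 19.2. Cdk1, the mitotic kinase, was at 59.3 against 17.9, 27.6 and 30.5. Each was under or near 30 on the 3 other muscle arrays. Top2a was at 60.2 against 24.2 to 28.7, and Birc5 (survivin, of the chromosomal passenger complex) at 55 against 10.9 to 18.2. The others that were alone high were Rrm2 (112 against 35.7 to 46.4), Cdc6 (62.3 against 25.3 to 38.4) and Ccne1 (46.9 against 15.3 to 26.2). These genes had 5 further probe sets that reached 30 in muscle, and 4 of them were highest on this array. The exception was that of Top2a, at 26.3 against 23.2 to 42.8. Of the other genes of G2 and mitosis, Cdc20 was at 80.6 against 54.6 to 78.8 and Aurka at 77.1 against 69.3 to 126, while Ccnb2, Aurkb, Plk1 and Bub1 were under 30 on all muscle arrays. With values under 30 included, 9 of the 11 were highest on this array (81.8%), as were 18.7% of all genes. Summed over the 11 measured genes of this group, the intensity was 586 there and 287 to 349 on the other 3. D-type cyclins did not share this, with Ccnd1 at 198, Ccnd2 at 512 and Ccnd3 at 276, inside the range of the other muscle arrays, and Pcna was at 921 against 840 to 968.

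Markers of blood cells were high on the same array. All 7 neutrophil markers were highest on it, and their sum was 7620 against 252 to 743. S100a9 (calprotectin) was at 2630 against 55.8 to 123, Ngp at 1280 against 53.5 to 65.2 and Camp at 602 against 27.9 to 36.7, all proteins of neutrophil granules or cytosol. Mpo and Elane, which are transcribed in neutrophil precursors, were at 320 and 204 against 15.8 to 34 and 8.71 to 42.9. The erythroid sum was 315 against 110 to 131, with Slc4a1, the band 3 protein of red cells, at 121 against 8.63 to 32.5. Macrophage markers summed to 4667 against 2667 to 3464, and B and plasma cell markers to 365 against 164 to 202. The part of these cells in the levels of the mitotic genes was not tested.

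On WAT saline replicate 2 the 7 genes that were alone high were Mcm2, Mcm5, Rrm2, Ccnd1, Cdk4, Mki67 and Top2a. Mcm2 was at 202 against 56 to 127 and Mcm5 at 123 against 54.2 to 55.3. Ccnd1 was at 501 against 192 to 316, and Cdk4 at 505 against 282 to 302. Rrm2 was at 60.2 against 27.1 to 28.5, Mki67 at 59.7 against 15.4 to 37.1 and Top2a at 75.1 against 25.4 to 46.5. These genes had 7 further probe sets that reached 30 in WAT, and 5 of them were highest on this array. That of Top2a was not, at 30.2 against 24.5 to 34.6. With values under 30 included, 8 of the 11 measured genes of G2 and mitosis were highest on this array (72.7%), as were 25.2% of all genes. Their sum over 11 genes was 480, against 284 to 377 on the other WAT arrays.

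This array carried a strong smooth muscle signal. The 7 smooth muscle markers summed to 31097 against 6121 to 6991, with Myh11, the smooth muscle myosin, at 5590 against 515 to 703 and Cnn1 (calponin) at 3363 against 251 to 307. Adipocyte markers summed to 48756 against 53513 to 58846, and neutrophil markers to 755 against 174 to 227, with S100a8 at 357. The part of these cells in the level of the cell cycle genes was not tested. Since this is a saline array, it lowers the UAG over saline ratio of each gene it raises.

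**Figure D4:**
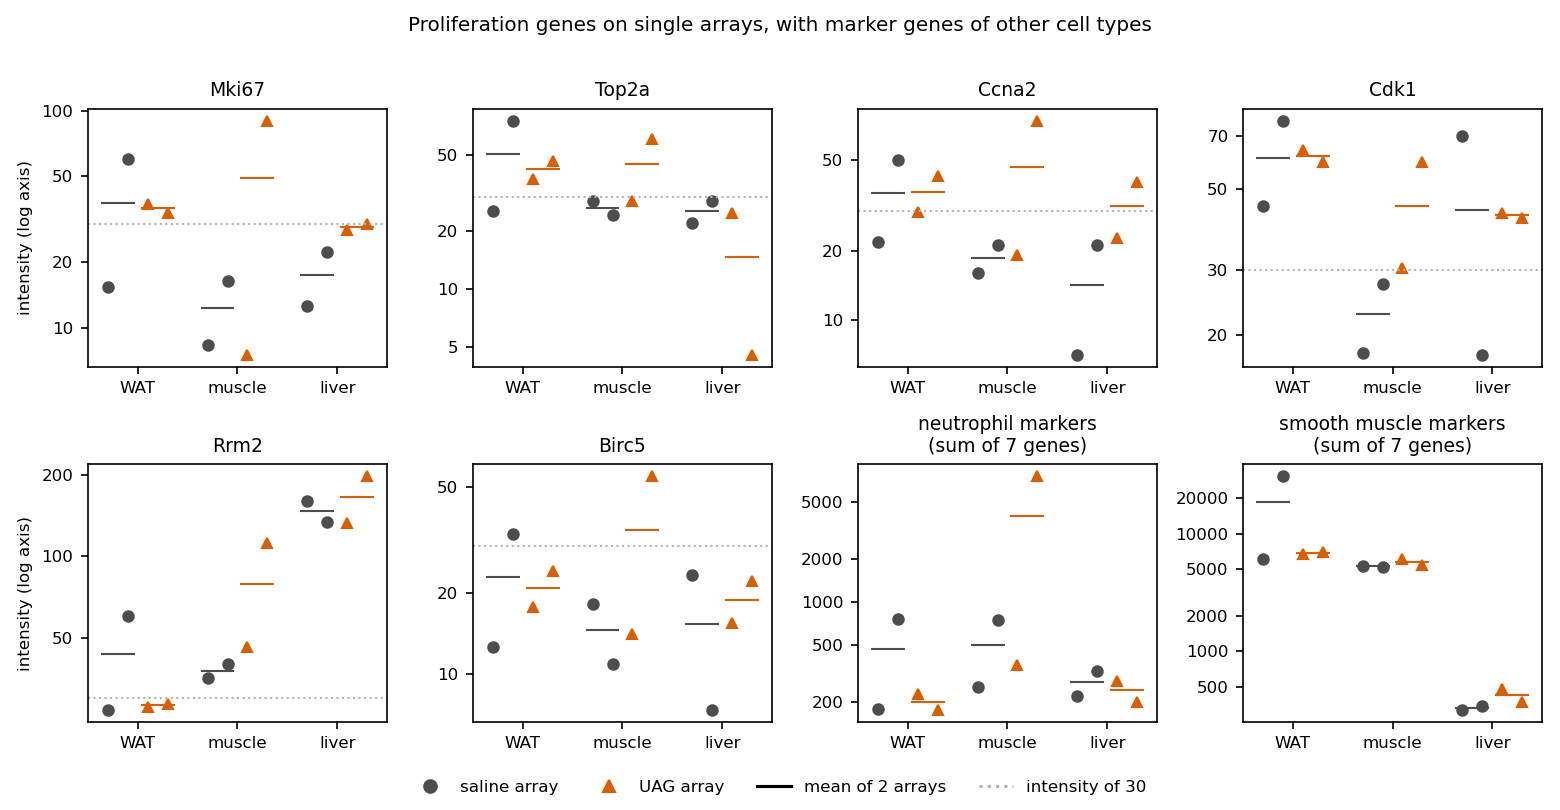
Intensity (log axis) of 6 proliferation genes and summed intensity of 7 neutrophil and 7 smooth muscle marker genes on each array; circles are saline arrays, triangles UAG arrays, short lines the mean of 2 arrays and the dotted line the threshold of 30. Muscle UAG replicate 2 had Mki67 at 90 and a neutrophil sum of 7620, and WAT saline replicate 2 had Mki67 at 59.7 and a smooth muscle sum of 31097.

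Other arrays differed in a few genes. Muscle saline replicate 2 had the highest Ccnd2 (794) and Cdkn2c (1277) of the muscle arrays, both genes that were highest in WAT, and its adipocyte markers summed to 41193 against 26124 to 34157. Tk1 and Cdkn1a were lowest on the same array, at 20.6 and 229. Muscle saline replicate 1 had the lowest Ccnd1 (97.5) and Mcm6 (66.3) and the highest Mcm2 (146) of that tissue. In WAT, Cdkn1a was lowest on saline replicate 1 (135), the array on which the brown adipocyte markers summed to 20226 against 2118 to 4223 and those of skeletal muscle fibres to 4049 against 873 to 1617. In liver Cdk1 was at 69.8 on saline replicate 1 and 17.6 to 43.1 on the others, and Ccne1 at 17.3 on UAG replicate 2 against 59.2 to 81.1. The part of other cells in these values was not tested.

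A wider set of 119 further genes of the cycle, in 4 lists, gave 117 measured genes and 90 bright enough for the tests between tissues. For UAG, limma called 0 of the 90, 86 and 82 tested in WAT, muscle and liver, with 7, 2 and 4 at an unadjusted p under 0.05, which 6.73%, 1.81% and 3.52% of all probe sets passed. By the 2-fold rule there was 1, in liver. It was Orc1, the large subunit of the origin recognition complex, at 51.1 and 25.1 after saline and 93.9 and 104 after UAG, with a ratio of 2.44 (log2 difference 1.46 ± 0.41, adjusted p = 1.00, limma). The largest log2 differences in WAT and muscle were those of Orc1 (1.27 ± 0.72) and of the spindle gene Spag5 (1.10 ± 0.67). Between tissues, 34 genes were higher and 10 lower in WAT than in liver, 39 and 14 in muscle than in liver, and 14 and 18 in WAT than in muscle, against the shares of all probe sets given above. The largest difference was that of Mcm10, a replication fork protein, at 802 to 1117 in liver and 11.7 to 34.3 elsewhere. Ccnf was also a liver gene, at 133 to 167 against 5.41 to 19.6. Ccng1, an atypical cyclin and p53 target, was at 6065 to 7578 in muscle, 1210 to 1405 in WAT and 271 to 394 in liver. E2f6, a repressive E2F, was at 1244 to 1767 in muscle against 286 to 338 in WAT and 149 to 178 in liver. Among 38 other mitotic genes, 4 were alone high on muscle UAG replicate 2 (10.5%), where 0.632% of all genes were. On WAT saline replicate 2 it was 1 of these 38 (2.63%), where 2.84% of all genes were. Among 37 other licensing and replication genes, 1 (2.7%) was alone high on each of these 2 arrays.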

How the data were processed

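The deposited table holds normalized intensities of 12 arrays on a scale read here as log2. The scale is not stated in the sources used here, and base 2 was taken because the largest values are then within the range of a scanner. The methods name quantile normalization and a threshold of 30, and the submitters' notes MAS5. The quartiles of the arrays were equal, and no further scaling was made. Affymetrix controls (64) were left out, and 932 probe sets of several genes and 9160 without a name gave no gene. A gene's level was that of its brightest probe set over the 12 arrays.

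limma 3.58.1 in R 4.3.3 was fitted with an intensity trend, to the 4 arrays of a tissue for UAG and to all 12, with a mean per group, for tissues. Tests covered probe sets whose intensity averaged 30 or more, with p-values adjusted by Benjamini and Hochberg over all of them (threshold 0.05). Ratios used means of intensities floored at 30. No term for the mouse was fitted. Levels on each array are given for genes past a rule above and for up to 3 genes per role and tissue comparison; other named genes were chosen after their values were seen. Members and lists were chosen with earlier results of these data known. The fit was tested on simulated data. Alternatives are given at the end.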

Additional observations from a re-analysis of the deposited data

How the results depend on the processing

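The number of arrays, 2 per arm, and the low signal of 23 of 41 genes, which were under 30 on at least 1 array, limit the precision. The 0 members called after UAG became 0 to 4 in WAT and 0 to 1 in muscle when each array was left out in turn, and stayed 0 in liver. The 2-fold members went from 1 to 0 in WAT and in muscle with a floor of 100, and from 1 to 0 in muscle with geometric means. With no floor they went from 1 to 7 in muscle and from 0 to 6 in liver. Left out in turn, arrays gave 0 to 4 (WAT), 0 to 4 (muscle) and 0 to 2 (liver). The shares of all genes that were 2-fold in these settings are not given here. Between tissues, leaving out each array in turn gave 16 to 19 for WAT against liver, 18 to 21 for muscle against liver and 9 to 17 for WAT against muscle, lowest (9) without muscle saline replicate 1. In the same order, a mean of at least 100 gave 13, 14 and 12, saline arrays alone 14, 15 and 3, and no filter 20, 22 and 13. Left out together, a choice made after seeing the data, WAT saline replicate 2 and muscle UAG replicate 2 left 15, 19 and 10. Of the genes called, 14 of 18, 14 of 20 and 3 of 14 (Ccnd2, Ccnd3 and Cdkn1b) kept their call in every alternative in which they were tested; 12, 10 and 3 of these were among those tested at a mean of at least 100. No direction was reversed. The replicate number as a block changed no count of members by over 1.5 times: it gave 0 members for UAG in each tissue. Deviations of same-numbered arrays correlated at 0.00 to 0.12 across tissues and at -0.14, 0.11 and -0.04 within them. With 2 arrays per group in different tissues, such values cannot show whether same-numbered arrays came from 1 mouse.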
